A study of Mus musculus with 10 samples.

Results

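The 10 genes described here carry pyruvate into the mitochondrion, convert it to acetyl-CoA and switch that conversion on and off: the carrier genes Mpc1 and Mpc2, the pyruvate dehydrogenase genes Pdha1, Pdhb, Dlat, Dld and Pdhx, the kinase genes Pdk2 and Pdk4, and the phosphatase gene Pdp1. They were taken as every probe set of the array that names 1 of these genes alone, which gave 16 of the 45101 probe sets, and the brightest of them stands for its gene. Of these, 15 probe sets passed the filter on dim signals, and all 10 genes were among the 11217 genes tested.

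Total RNA from the gastrocnemius of 5 D257A mice and 5 WT mice was hybridized to Affymetrix mouse genome arrays, 1 for each mouse. D257A mice carry PolgD257A/D257A, a knock-in form of the mitochondrial DNA polymerase γ that cannot proofread, in every cell, and WT mice are Polg+/+. All were males of 13 months. Per the study's methods both genotypes came from a mixed 129Sv/ICR/B6 background that was backcrossed into C57Bl/6J.

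Pyruvate made in the cytosol crosses the inner mitochondrial membrane through a carrier built of MPC1 and MPC2. The pyruvate dehydrogenase complex then turns it into acetyl-CoA: E1 (PDHA1 and PDHB) removes the carboxyl group, E2 (DLAT) passes the acetyl group to coenzyme A on its lipoyl arm, E3 (DLD) restores that arm, and PDHX holds E3 on the E2 core. Pyruvate dehydrogenase kinases phosphorylate E1 and switch the complex off, and the phosphatase PDP1 switches it on again. In muscle, PDK4 is known as the kinase that rises in fasting, when the tissue burns fat and spares glucose.

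Whole-series checks were as follows. The deposited signals had trimmed means of 93.4 to 106 in D257A mice and 94.5 to 129 in WT mice, and each array was multiplied to a trimmed mean of 500, which gives the scaled signals used below. The labels give gastrocnemius as the tissue, while 1 line of their extraction protocol names cochlea. Of 12 fast muscle genes, all were tested and 0 differed between the genotypes by limma or by the methods' t-test, even at an unadjusted p under 0.05, in their brightest probe sets (median log2 fold change 0.06; of the other sets, 1 of Myh1 was called), whereas 2 of 9 cochlea genes with a probe set were bright enough to test, and their summed signal was 242 to 494 in D257A mice and 388 to 486 in WT mice. Of 8 slow muscle genes 0 were called, with a median of 0.20. At an unadjusted p under 0.05, 2 of them were higher by limma, beside 11.1% of all genes, and 0 by the methods' t-test. The summed signal of 8 macrophage genes was 9016 to 12792 in D257A mice and 6955 to 8316 in WT mice, and 4 of the 8 were higher in D257A mice. The genes not called were Cd68, Cd14, Csf1r and Adgre1, with log2 fold changes of 0.02, 0.09, 0.20 and 0.33. Of 7 fibroblast genes, 4 were lower in D257A mice. These were Col1a1 (log2 fold change -2.87), Col1a2 (-2.41), Col3a1 (-1.80) and Fn1 (-0.89). Lum (-0.48), Dcn (-0.08) and Pdgfra (-0.04) did not pass. Of 7 endothelium genes 1 was higher in D257A mice, as was 1 of 5 tested adipocyte genes. The part of these other cells in the results was not tested. In bulk muscle, fewer cells of a type and less RNA per cell cannot be told apart. The 3 probe sets of Polg had log2 fold changes of 0.09, 0.23 and 0.85, and none passed the test (adjusted p = 0.768, 0.422 and 0.18, limma), although a point mutation leaves nothing for these probes to check.

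The promoters of the carrier pair are shown because the log2 fold changes of both genes lay close together, -0.39 for Mpc1 and -0.35 for Mpc2. Those of Pdhx (-0.41) and Dld (-0.33) lay near these values too, so the closeness is not particular to the pair. The Mpc2 probe set was also named from the study's table of changed probe sets in these samples. The promoters shown are the 250 bases before the first annotated RefSeq start (GRCm38.p6, plus strand in both cases), at chr17:8283537-8283786 for Mpc1 and at chr1:165461010-165461259 for Mpc2. Capitals mark the CCAAT box (CCAAT) and the GC box (GGGCGG), each read on both strands.
Mpc1: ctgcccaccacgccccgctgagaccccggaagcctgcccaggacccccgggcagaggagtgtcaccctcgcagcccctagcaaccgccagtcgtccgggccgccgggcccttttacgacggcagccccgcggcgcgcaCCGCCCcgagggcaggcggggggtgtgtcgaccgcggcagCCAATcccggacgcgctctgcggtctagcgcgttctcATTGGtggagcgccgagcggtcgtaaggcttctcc
Mpc2: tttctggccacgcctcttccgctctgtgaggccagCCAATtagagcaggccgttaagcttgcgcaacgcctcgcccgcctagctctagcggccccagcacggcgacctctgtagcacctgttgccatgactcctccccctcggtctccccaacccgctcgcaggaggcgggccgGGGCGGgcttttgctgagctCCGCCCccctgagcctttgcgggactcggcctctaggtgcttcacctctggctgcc

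Both stretches are rich in G and C, 73.6% of the bases in Mpc1 and 67.2% in Mpc2. Mpc1 holds 2 CCAAT boxes and 1 GC box, and Mpc2 holds 1 CCAAT box and 2 GC boxes. These letters are common: of 32851 promoters of 300 bases, 37.4% held CCAAT and 35.7% held GGGCGG. RefSeq promoters were matched for 9 of the 10 genes, all but Pdp1, which gave 11 promoters, of which 7 held CCAAT and 6 held GGGCGG. The 4 motifs searched first gave few matches. The extended half-site of the estrogen-related receptors (TNAAGGTCA, 1.28% of all promoters), the direct repeat bound by PPAR receptors (AGGTCANAGGTCA, 0.0396%) and the FoxO site (GTAAACA, 3.65%) were in 0 of the 11. The NRF1 palindrome (GCGCANGCGC, 4.6% of all promoters) was in 1, that of Dld, where it lies just inside the transcript on the minus strand of chromosome 12. It is shown in capitals in 30 bases at chr12:31351422-31351451.
Dld: cggcgatgacgtatatgttGCGCAGGCGCa

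Of the 10 genes, 3 were lower in D257A mice and 0 were higher (limma, adjusted p under 0.05 over all probe sets tested). The 3 were Mpc1, Dlat and Pdhx, that is, a subunit of the carrier, the E2 core and the protein that holds E3 to it. At an unadjusted p under 0.05, 7 of the 10 were lower and 0 higher, and the methods' t-test gave 6 lower and 0 higher at that level. Of all genes tested, 11.7% were lower and 11.1% higher at that unadjusted level by limma, and 11.2% and 10.8% by the methods' t-test. The shares that follow refer to adjusted calls. Of all 11217 genes, 3.52% were lower and 3.71% were higher. Counted by probe set, 5 of 15 were lower and 0 higher, beside 3.74% lower and 3.64% higher among all probe sets tested. Signs leaned the same way, with a log2 fold change below 0 in 8 of the 10 genes, against 51.4% of all genes, and with a median of -0.34 over the 10, against -0.01 over all genes. The 2 genes above 0 were the kinases Pdk2 and Pdk4, of which Pdk2 turned to -0.02 on the signals as deposited. Mpc2 is included in the unadjusted counts, the signs and the median here, and in later counts where it passed. Its probe set was named from the study's table of changed probe sets in these samples. For this gene the comparison with all genes is therefore not independent of how it was found.

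**Figure D1:**
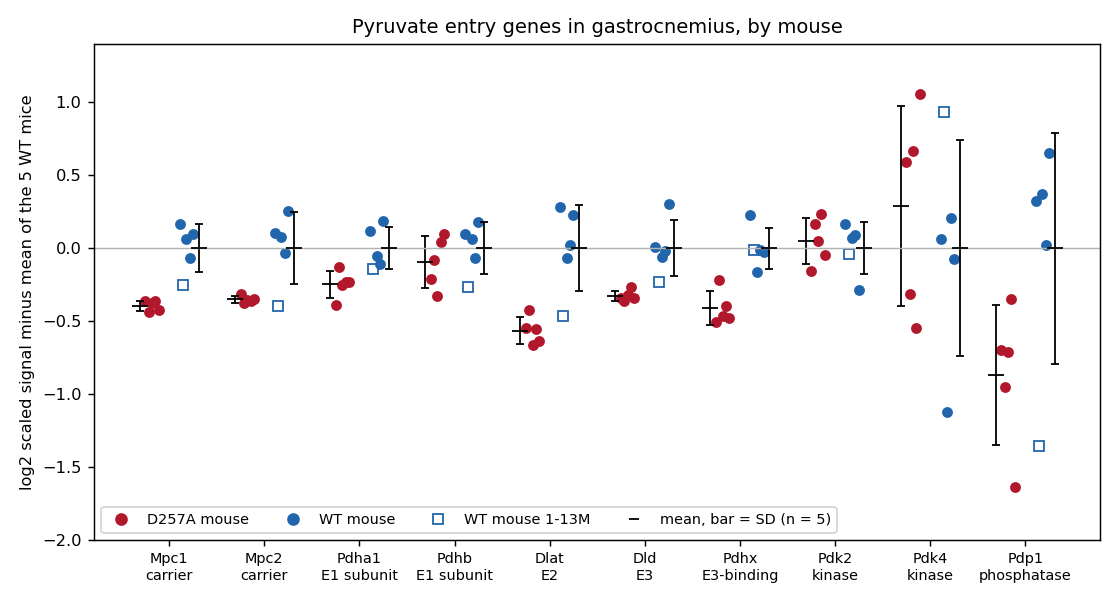
Log2 scaled signal of each of the 10 genes (brightest probe set) in each mouse, minus the mean of the 5 WT mice, with D257A mice in red on the left and WT mice in blue on the right of each gene; black marks are the mean and SD of 5 mice. Mpc1, Dld and Pdhx are the 3 genes in which every D257A mouse lies below every WT mouse, and the open square, WT mouse 1-13M, is the lowest WT mouse in 7 of the 10.

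One WT mouse, 1-13M, set much of the spread. It was the lowest of the 5 WT mice in 7 of the 10 genes, whereas it was the lowest in 30.3% of all probe sets tested. Without it, 7 of the 10 genes were lower in D257A mice (Mpc1, Mpc2, Pdha1, Dlat, Dld, Pdhx and Pdp1) and 0 were higher, beside 8.34% of all genes lower and 7.76% higher. The count of 3 was 1 without D257A mouse 2-25M or without WT mouse 1-12M. It was 2 or 3 without any 1 of the other 7 mice. The labels do not say what sets 1-13M apart. The array of 1-13M had the highest deposited trimmed mean of all 10, 129, against 94.5 to 116 in the other WT mice. D257A mice had 93.4 to 106. Scaling all arrays to the same mean therefore multiplied the signals of 1-13M by the smallest factor. The ranks given here are of scaled signals and depend on this factor. In the deposited signals 1-13M was still the lowest WT mouse in Mpc2, Dlat and Pdp1, but not in Mpc1, Pdha1, Pdhb or Dld. The share over all probe sets was not taken on the deposited signals.

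The array scaling also moved the count. It was 5 on the signals as deposited, 6 after quantile normalization and 0 when each array was centred on its median, and the median over the 10 genes was -0.41, -0.39 and -0.20. Of all 22518 probe sets tested, 856, 822 and 418 were lower under these scalings, against 843 in the analysis described here. Those scalings placed the median of all probe sets tested at -0.10, 0.01 and 0.10, against -0.03 in the analysis described here, so that the median of the 10 genes lay below that of all probe sets under each of the 4. A fit without a trend of variance on signal called 0 of the 10 genes, and with a block for the first digit in the mouse names the count was again 0. Of all probe sets tested, 615 were lower without the trend and 271 with the block. All 5 D257A mice and 2 WT mice have names that start with 2. Fitted alone, these mice gave a count of 4 (Mpc1, Mpc2, Dlat and Pdp1), with 858 of all probe sets lower.

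Mpc1, the smaller subunit of the carrier (probe set 1453651_a_at), had scaled signals of 19440, 18563, 19414, 19511 and 18753 in D257A mice, against 28046, 21074, 26167, 23953 and 26748 in WT mice. Every D257A mouse lay below every WT mouse, which held for 3.47% of all genes, and the D257A mice spanned a narrow range. The means were 19136 ± 443 in D257A mice and 25197 ± 2739 in WT mice (mean ± SD of 5 mice each). Mpc1 fell by 0.39 on the log2 scale (SE 0.08, 95% interval -0.57 to -0.21, adjusted p = 0.0136, limma), which is 23.7% lower. It remained called whichever 1 mouse was left out, with adjusted p of 6.63e-04 to 0.0426. The call was lost with the arrays centred on their medians (adjusted p = 0.111), with no filter on dim probe sets (0.0605), without the variance trend (0.0671) and with the block (0.087).

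Mpc2, the other subunit (1423833_a_at), had signals of 16129, 15535, 15731, 15594 and 15787 in D257A mice, against 21616, 15301, 21113, 19595 and 23964 in WT mice. All D257A mice lay below 4 WT mice and above the fifth, 1-13M. The log2 fold change of -0.35 (SE 0.10, 95% interval -0.58 to -0.13) did not pass the test (adjusted p = 0.0574, limma). It was -0.45 without 1-13M (adjusted p = 0.00111). The gene name of this probe set comes from the study's own table of changed probe sets, since the platform annotation used here leaves it unnamed, so that its being named at all depends on its having changed in these samples.

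The carrier subunits did not measurably part from each other. Within each mouse, log2 Mpc1 minus log2 Mpc2 averaged 0.28 ± 0.03 in D257A mice and 0.32 ± 0.11 in WT mice (mean ± SD of 5 mice each), a difference of -0.04 (2-sided exact permutation test, p = 0.484, adjusted p = 0.643 over 4 such differences). Without 1-13M the difference was 0.00. A probe set's signal is not a molar amount, so only the change of this difference between genotypes can be read. The Mpc2 probe set was named through its change in these samples, and an unchanged set would not have entered. The likeness of the 2 subunits is therefore not independent of how Mpc2 was found.

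Among all 11217 genes, the 5 whose mouse-to-mouse profile lay nearest to that of Mpc1 were Uqcrc2, Ndufab1, Ndufa8, Fam210a and Hadh, with root mean square distances of 0.049, 0.054, 0.056, 0.061 and 0.069 on the log2 scale over the 10 mice, where Mpc1 itself varied by 0.222. UQCRC2 is a core protein of respiratory complex III, NDUFAB1 and NDUFA8 belong to complex I, FAM210A is a mitochondrial protein, and HADH is an enzyme of fatty acid oxidation. Mpc2 ranked 7th (0.076) and Dld 23rd (0.097). The rank of Mpc2 is not independent of how its probe set was named. Pdk4 and Pdp1, which varied more between mice, ranked 10772 and 9813. The distance is not adjusted for how much a gene varies, so a far rank need not mean a different pattern. The likeness includes the genotype difference, and for Uqcrc2 that difference was -0.33 (adjusted p = 0.0274, limma).

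Pdha1, the catalytic α subunit that the kinases phosphorylate, had signals in its brighter probe set (1418560_at) of 16367, 19589, 17999, 18332 and 18308 in D257A mice, against 23280, 19542, 20718, 19856 and 24498 in WT mice. The highest D257A mouse, 2-21M, lay just above the lowest WT mouse, 1-13M. Its log2 fold change was -0.25 (SE 0.09, adjusted p = 0.0965) and -0.28 without 1-13M (adjusted p = 0.0314, limma).

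The second Pdha1 probe set (1449137_at) gave 8415, 8047, 6288, 6832 and 6345 in D257A mice, against 10734, 10406, 8156, 9242 and 8717 in WT mice. Here 4 of the 5 D257A mice lay below all WT mice. It fell by 0.40 (SE 0.11, adjusted p = 0.0486, limma). That call sat at the threshold: it held without 1 mouse in 3 of 10 cases, and the highest adjusted p among the 10 was 0.125.

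Pdhb, the β subunit of E1, showed no change that these arrays could resolve. Its brighter probe set (1416090_at) had signals of 16785 to 22495 in D257A mice and 17420 to 23829 in WT mice, with a log2 fold change of -0.10 (95% interval -0.32 to 0.13, adjusted p = 0.624, limma). The dimmer one (1448214_at) gave -0.18 (95% interval -0.53 to 0.18, adjusted p = 0.563). A fall of the size seen in Mpc1, Dlat or Pdhx lies outside the interval of the brighter probe set.

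Dlat, the E2 acetyltransferase that forms the core of the complex, had the largest fall among the 3 genes called. Its brightest probe set (1426265_x_at) gave 4784, 5167, 4400, 4726 and 4477 in D257A mice, against 8472, 5050, 6675, 7099 and 8154 in WT mice. The D257A mice lay below 4 WT mice, and 1-13M lay among them. The means were 4711 ± 302 in D257A mice and 7090 ± 1358 in WT mice (mean ± SD of 5 mice each).

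Dlat fell by 0.57 on the log2 scale (SE 0.13, 95% interval -0.85 to -0.29, adjusted p = 0.0186, limma), which is 32.6% lower, and by 0.69 without 1-13M (adjusted p = 3.77e-04). The call held without 1 mouse in 8 of 10 cases, and was lost without D257A mouse 2-25M (adjusted p = 0.052) or without WT mouse 1-12M (0.0548). It was also lost with arrays centred on their medians (0.065), without the variance trend (0.0501), with the methods' t-test (0.0609) and with the block (0.105). Probes of an _x_at set can bind other transcripts as well. The set 1426264_at, which carries no such mark, fell by 0.53 (adjusted p = 0.0368), a call that held without 1 mouse in only 2 of 10 cases and reached an adjusted p of 0.101 without WT mouse 1-12M.

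The third Dlat probe set (1452005_at) read 2065, 2375, 1811, 2280 and 1822 in D257A mice, against 3677, 1373, 3584, 3980 and 4663 in WT mice. In this set 1-13M was the lowest of all 10 mice, below every D257A mouse. The log2 fold change was -0.64 (SE 0.26, adjusted p = 0.152, limma), and -0.94 without 1-13M (adjusted p = 1.69e-04).

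Whether E2 changed more than E1α was tested within each mouse, on the brightest probe set of each gene. The other Pdha1 set, 1449137_at, had a log2 fold change of -0.40, against -0.25 in the set used. No such test was made with it. Log2 Dlat minus log2 Pdha1 averaged -1.94 ± 0.11 in D257A mice and -1.62 ± 0.20 in WT mice (mean ± SD of 5 mice each), a difference of -0.32. The 2-sided exact permutation test gave p = 0.0238, and 0.0952 after adjustment over the 4 differences tested, so it did not pass. Without 1-13M the difference was -0.40 (exact permutation p = 0.00794, the smallest that 5 against 4 mice can give here).

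Dld encodes E3, which the 2-oxoglutarate dehydrogenase, branched-chain and glycine cleavage complexes also use. Its tested probe set (1423159_at) gave 5628, 5560, 5727, 5906 and 5622 in D257A mice, against 7177, 6094, 6856, 7009 and 8756 in WT mice. No D257A mouse reached the lowest WT mouse. The log2 fold change of -0.33 (SE 0.10, 95% interval -0.54 to -0.11) nonetheless missed the threshold (adjusted p = 0.0638, limma), with -0.38 without 1-13M (adjusted p = 0.0102). The other Dld probe set (1433263_at) had a mean log2 signal of 3.39, below the filter, and was not tested.

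Pdhx, which tethers E3 to the E2 core, had signals of 1780, 2175, 1827, 1924 and 1820 in D257A mice, against 2955, 2501, 2257, 2509 and 2480 in WT mice (1456090_at). All D257A mice lay below all WT mice, and 1-13M was not the lowest WT mouse here. Pdhx fell by 0.41 (SE 0.11, 95% interval -0.65 to -0.18, adjusted p = 0.0337, limma), which is 24.9% lower.

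The Pdhx call held without 1 mouse in 4 of 10 cases, and in the other 6 the adjusted p was 0.0619 to 0.095, with 2-17M, 2-25M, 2-27M or 2-30M left out of the D257A group or 1-12M or 2-32M out of the WT group. It was also lost on the signals as deposited (0.0547), with the arrays centred on their medians (0.131), without the variance trend (0.0614), with the block (0.221) and in the mice whose number starts with 2 (0.131).

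**Figure D2:**
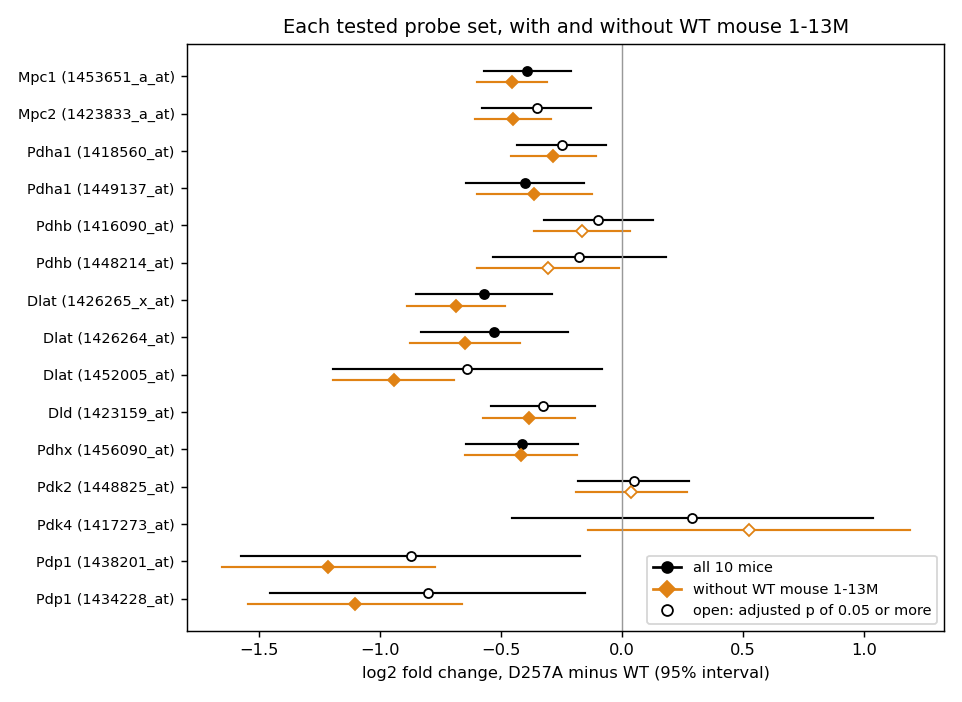
Log2 fold change, D257A minus WT, of the 15 tested probe sets of the 10 genes with 95% intervals, for all 10 mice (black circles) and without WT mouse 1-13M (orange diamonds); filled symbols have an adjusted p under 0.05. Filled black symbols mark 5 probe sets, and the intervals of Pdk4 and Pdp1 are the widest.

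Neither of the 2 kinase genes passed the test. Pdk2, the kinase with the broadest tissue range, gave 8654, 10844, 10042, 11308 and 9360 in D257A mice, against 10821, 9388, 10161, 10271 and 7920 in WT mice (1448825_at). The genotypes overlapped over most of their range. Pdk2 had a log2 fold change of 0.05 (SE 0.11, 95% interval -0.18 to 0.28, adjusted p = 0.823, limma).

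Pdk4, the fasting-induced kinase, varied more between mice than between the genotype means. It gave 35821, 19130, 37653, 16239 and 49296 in D257A mice, against 24765, 45510, 10892, 27303 and 22462 in WT mice (1417273_at). The highest D257A mouse was 2-30M and the highest WT mouse was 1-13M, and the groups overlapped over most of their range. The log2 fold change was 0.29 (SE 0.35, 95% interval -0.45 to 1.04, adjusted p = 0.663, limma), or 0.53 without 1-13M (adjusted p = 0.274). Single mice moved this value either way: it was 0.01 without WT mouse 2-3M and 0.10 without D257A mouse 2-30M. It was 0.75 in the mice numbered 2 and with the block for that digit (adjusted p = 0.3 and 0.373).

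Within each mouse, log2 Pdk4 minus log2 Pdk2 averaged 1.54 ± 0.82 in D257A mice and 1.30 ± 0.78 in WT mice (mean ± SD of 5 mice each). The difference of 0.24 was smaller than either spread (2-sided exact permutation p = 0.643, adjusted p = 0.643), and it was -0.06 without WT mouse 2-3M, the mouse with the least Pdk4.

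Pdp1, the calcium-stimulated phosphatase that reactivates the complex in muscle, had the largest log2 fold change of the 10 genes and a wide spread. Its brighter probe set (1438201_at) gave 1845, 1547, 1833, 2347 and 962 in D257A mice, against 3749, 1168, 3873, 3044 and 4705 in WT mice. Every D257A mouse lay below 4 WT mice, while 1-13M lay below 4 D257A mice. This gave a log2 fold change of -0.87 (SE 0.33, 95% interval -1.57 to -0.17), which did not pass (adjusted p = 0.121, limma).

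Without 1-13M it was -1.21 (adjusted p = 0.00152). In the mice whose number starts with 2, which are all 5 D257A mice and 2 WT mice without 1-13M, it was -1.07 (adjusted p = 0.0359), and the block for that digit gave the same value with adjusted p = 0.166. The second Pdp1 probe set (1434228_at) behaved alike, with 990 to 2145 in D257A mice and 1258 to 4288 in WT mice, a log2 fold change of -0.80 (adjusted p = 0.126) and -1.10 without 1-13M (adjusted p = 0.0028). In the mice numbered 2 it was -0.87 and did not pass (adjusted p = 0.0658).

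The mice at the ends of the range of Pdk4 stood at the other end of the range of Pdp1. The 2 mice with the most Pdk4, D257A mouse 2-30M and WT mouse 1-13M, had the least Pdp1 in both of its probe sets. The mouse with the least Pdk4, WT 2-3M, had the second highest Pdp1 signal in the brighter set. These are 10 mice read off the same arrays, and no test of the relation was made. Measured within each mouse, log2 Pdp1 minus log2 Pdk4 averaged -4.15 ± 1.06 in D257A mice and -2.98 ± 1.43 in WT mice (mean ± SD of 5 mice each), a difference of -1.16 (2-sided exact permutation p = 0.183, adjusted p = 0.365). Without 1-13M it was -1.74 (exact permutation p = 0.0317). By profile, Pdp1 ranked 11085 of 11217 genes in likeness to Pdk4, by a distance that also grows with a gene's own spread.

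**Figure D3:**
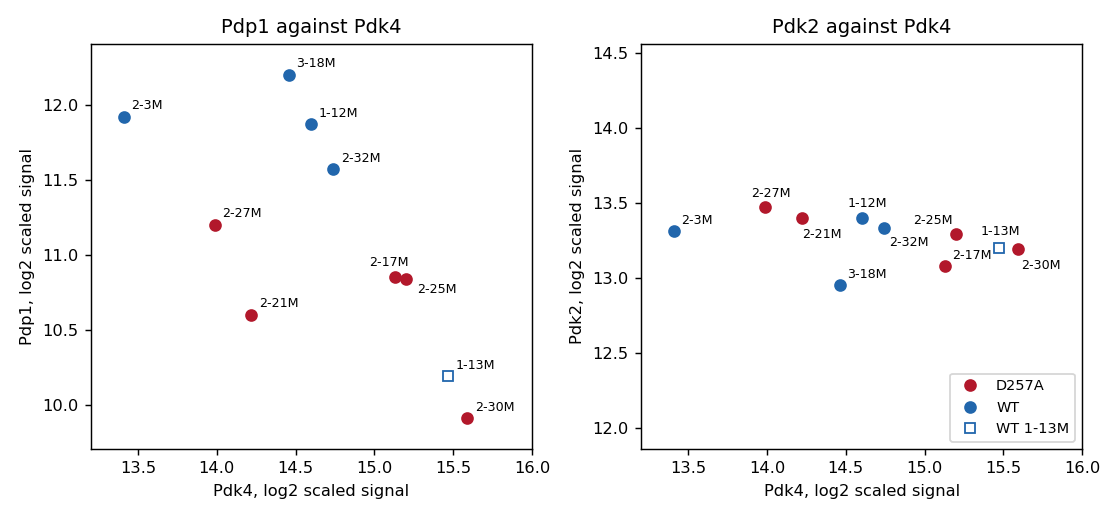
Log2 scaled signal of Pdp1 (left) and of Pdk2 (right) against that of Pdk4 in each of the 10 mice, with D257A mice in red, WT mice in blue and WT mouse 1-13M as an open square; both vertical axes span the same number of log2 units. The mice with the most Pdk4, 2-30M and 1-13M, are the lowest in Pdp1, while Pdk2 stays within a narrow band.

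The 5 genes nearest to Pdk4 in profile were Riox1, Klf11, Zfp839, Klf15 and Zc3h10, at distances of 0.229, 0.289, 0.296, 0.312 and 0.314, where Pdk4 itself varied by 0.655. RIOX1 is an oxygenase that acts on a ribosomal protein, KLF11 and KLF15 are Krüppel-like transcription factors, and ZFP839 and ZC3H10 are zinc finger proteins. None of the 5 passed the test between genotypes. Klf15, which glucocorticoids are known to induce in muscle, gave 4062, 2053, 3043, 1516 and 5342 in D257A mice, against 1800, 3000, 1298, 2996 and 1527 in WT mice (log2 fold change 0.54, SE 0.32, adjusted p = 0.342, limma). Its highest D257A mouse was again 2-30M, and 1-13M and 2-32M were the 2 highest WT mice. Fbxo32, an atrophy-related ubiquitin ligase picked after its values were seen, was at 28274 in 1-13M (1417522_at), above all other mice, where D257A mice had 11970 to 26921. Its log2 fold change was 1.03 (adjusted p = 0.104, limma), and 1.41 without 1-13M (adjusted p = 0.00126). The sets 1435265_at and 1448747_at had -0.02 and 0.82 (adjusted p = 0.983 and 0.182), and 1-13M was the highest mouse in both. The part of these mouse-to-mouse differences in the results on Pdk4 and Pdp1 was not tested.

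The spread within a genotype was itself uneven. In all 10 genes the SD of the log2 signal was smaller in D257A mice than in WT mice, and the same held for 66% of all genes. Without 1-13M it held for 7 of the 10 genes and for 49.4% of all genes. In Mpc1, Mpc2 and Dld the D257A mice varied by SDs of 0.03, 0.02 and 0.03 on the log2 scale, against 0.16, 0.24 and 0.19 in WT mice.

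The remaining kinase and phosphatase genes added 1 further gene with probe sets that were lower. Pdpr, the regulatory subunit of the phosphatase, was not called in its brightest probe set (1454980_at, log2 fold change -0.26, adjusted p = 0.143, limma). Of its 2 other tested sets, 1434480_at read 488 to 800 in D257A mice and 818 to 1480 in WT mice and fell by 0.89 (adjusted p = 0.00817), and 1459869_x_at read 653 to 893 in D257A mice and 1135 to 1793 in WT mice and fell by 0.80 (adjusted p = 0.00568). In both sets the genotypes did not overlap and 1-13M was the highest WT mouse, unlike in Pdp1. The probe sets of Pdpr thus disagreed in size, and the level of the gene stays uncertain.

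Pdk1, the kinase known for its rise in hypoxia, had a log2 fold change of -0.09 (SE 0.19, adjusted p = 0.816, limma) in its brightest probe set, and 0 of its 4 probe sets passed. The sets 1423747_a_at, 1423748_at and 1434974_at had -0.38, -0.22 and -0.52 (adjusted p = 0.0984, 0.462 and 0.168, limma). In 1434974_at all D257A mice, at 61.2 to 70.2, lay below all WT mice, at 83 to 118. These signals lie near the filter on dim probe sets, and such a separation held for 3.47% of all genes. Without 1-13M, 1423747_a_at passed (adjusted p = 0.0325, limma). Pdp2, the other phosphatase, had -0.06 (SE 0.24, adjusted p = 0.915). Pdk3 was too dim to test, with signals of 11.9 to 70 in D257A mice and 9.25 to 73.9 in WT mice.

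Genes that supply pyruvate from lactate, alanine or malate moved in both directions, with 2 of 11 lower, 1 higher and a median of -0.33. Ldhd, the D-lactate dehydrogenase of mitochondria, gave 245, 332, 342, 413 and 251 in D257A mice, against 733, 591, 731, 670 and 591 in WT mice. The genotypes were far apart, and Ldhd fell by 1.09 (SE 0.16, adjusted p = 0.002, limma). Its second probe set (1428613_at) fell by 0.71 (adjusted p = 0.00407).

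The alanine transaminases parted. Gpt, the cytosolic form, fell by 0.73 (SE 0.19, adjusted p = 0.0346), with 435 to 503 in D257A mice and 466 to 1131 in WT mice, of which 1-13M was the highest, and without 1-13M it fell by 0.59 (adjusted p = 0.0294). The call was lost on the signals as deposited (0.0698), with arrays centred on their medians (0.0605) and without the variance trend (0.0583). Gpt2, the mitochondrial form, gave 12291, 12676, 7950, 10959 and 10184 in D257A mice, against 5523, 7654, 5489, 6134 and 6004 in WT mice, and rose by 0.80 (SE 0.13, adjusted p = 0.00346, limma). No WT mouse reached the lowest D257A mouse.

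Ldhb, the heart-type lactate dehydrogenase subunit, is described because its probe sets disagreed, which was seen in its values. It was not called in its brightest probe set (log2 fold change -0.45, adjusted p = 0.141), yet its 3 other sets fell by 0.56, 0.63 and 0.57 (adjusted p = 0.0136, 0.0171 and 0.0211, limma). Probe sets of 1 gene read the same RNA samples and do not count as separate evidence.

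Downstream of pyruvate dehydrogenase, 0 of 8 genes for acetyl-CoA use and pyruvate carboxylation passed in limma, with a median of -0.07, and 1 was lower at an unadjusted p under 0.05 by limma and by the methods' t-test. Citrate synthase (Cs), which joins acetyl-CoA to oxaloacetate and was picked here as the next step, had a log2 fold change of -0.02 (95% interval -0.21 to 0.17, adjusted p = 0.905, limma) in its brightest probe set, and 0 of its 3 sets passed. Of 15 citric acid cycle genes 2 were lower, Sdhb (-0.42, adjusted p = 0.017) and Sdhc (-0.65, adjusted p = 0.0256), both subunits of succinate dehydrogenase, and 15 of 15 had a log2 fold change below 0. The count of 2 was 7 without 1-13M, 7 after quantile normalization and 6 on the signals as deposited. With arrays centred on their medians 13 of the 15 were below 0 and 0 were called, and without the variance trend 0 were called (adjusted p = 0.0702 for Sdhb and 0.0617 for Sdhc). Of 7 tested genes for lipoic acid and thiamine, the cofactors of E2 and E1, 0 passed in limma (median -0.11, and 0.03 with arrays centred on their medians), 2 were lower at an unadjusted p under 0.05, and the methods' t-test passed 1 after adjustment.

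The complexes that share E3 with pyruvate dehydrogenase held 3 genes that were lower. Of 8 tested genes of the 2-oxoglutarate, branched-chain and glycine cleavage complexes and their regulators, 3 were lower and 0 higher, with a median of -0.45. The summed signal was 22703 to 25172 in D257A mice and 27038 to 32046 in WT mice, with no overlap. All 3 belong to branched-chain 2-oxo acid dehydrogenase: Bckdhb, its E1β, fell by 0.61 (adjusted p = 0.00597), Dbt, its E2, by 0.63 (adjusted p = 0.0201), and Ppm1k, its phosphatase, by 0.69 (adjusted p = 0.0383, limma). The call of Ppm1k was lost after quantile normalization (0.0525), with arrays centred on their medians (0.0785) and without the variance trend (0.0671). In the 2-oxoglutarate complex, Ogdh (-0.24, adjusted p = 0.227) and Dlst (-0.23, adjusted p = 0.212, limma) did not pass.

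Fatty acids compete with pyruvate as fuel, and 11 of 15 tested β-oxidation genes were lower, with a median of -0.43. The count was 5 of 15 with arrays centred on their medians and 6 without the variance trend. Regulators of Pdk4 and genes known to be induced with it showed no common direction, with 2 of 18 lower, 1 higher and a median of 0.00. Ppara, the fatty acid receptor that activates Pdk4, fell by 0.94 (SE 0.16, adjusted p = 0.00339, limma), and Ppargc1b, a coactivator of mitochondrial genes, by 0.91 (SE 0.22, adjusted p = 0.0248). The call of Ppargc1b was lost with arrays centred on their medians (0.0505) and stood at 0.05 without the variance trend.

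Foxo1, a forkhead factor that also activates Pdk4, gave 6345, 3353, 3118, 3547 and 8656 in D257A mice, against 1400, 3390, 1087, 3480 and 1103 in WT mice. It was highest in 2-30M, and WT mice 1-13M and 2-32M lay within the D257A range. Foxo1 rose by 1.34 (SE 0.37, adjusted p = 0.0441, limma), and by 1.56 without 1-13M (adjusted p = 0.00755). The call was lost on the signals as deposited (0.0792), after quantile normalization (0.0525) and without the variance trend (0.0797). Without 1-13M, 4 of the 18 genes were lower and 5 higher, beside 8.34% of all genes lower and 7.76% higher.

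**Figure D4:**
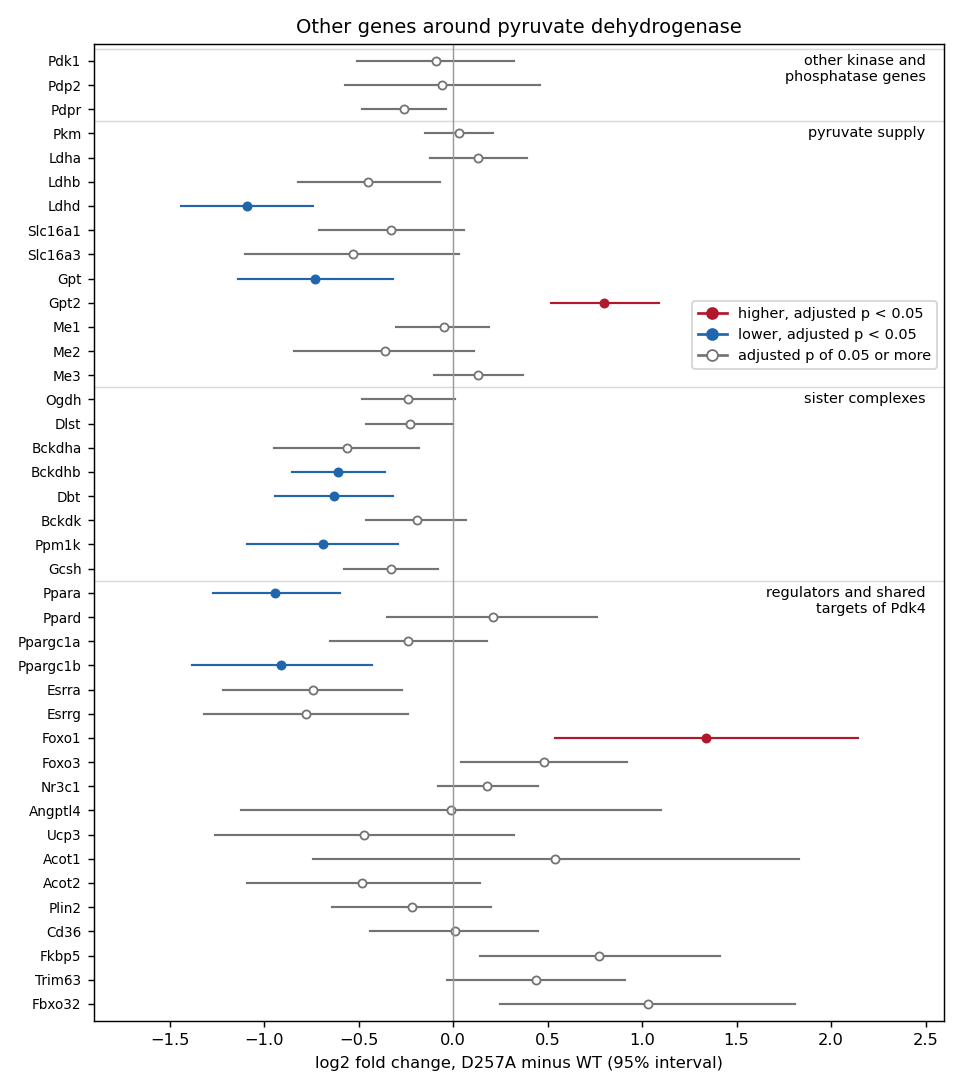
Log2 fold change, D257A minus WT, with 95% intervals for the tested genes of 4 groups around pyruvate dehydrogenase, brightest probe set each; red is higher and blue lower in D257A mice at an adjusted p under 0.05, open grey circles did not pass. Gpt2 and Foxo1 lie to the right and Ldhd, Gpt, Bckdhb, Dbt, Ppm1k, Ppara and Ppargc1b to the left of 0.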

How the data were processed

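Total RNA of gastrocnemius muscle from 10 mice was hybridized to 1 array each. The deposited values are linear intensity signals, 1 for every probe set of an array. The submitters' processing notes name GCOS 1.3, and which algorithm made the signals is not given in the sources read. A supplement states scaling to 500, which the deposited columns do not have, so each array was multiplied to a mean of 500 (2% trimmed at each end) and log2 was taken of the deposited signals so scaled. The 64 controls were left out, and the 22518 probe sets whose average log2 signal exceeded the median of 6.26 entered limma 3.58.1 under R 4.3.3 (lmFit, eBayes with trend; D257A minus WT; no covariates) and adjusted by Benjamini-Hochberg. A called probe set has an adjusted p under 0.05. The limma step was tested on simulated data.

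Of the probe sets, 34958 named 1 gene in the platform annotation, 932 several and 9210 none; 1 (Mpc2) was named from the study's supplement. Differences within mice used exact permutation over the 252 assignments of mice, whose smallest 2-sided p is 0.00794. Mouse numbers in the labels show 10 separate animals. Named genes were all members, up to 4 called genes per list with the smallest adjusted p, the other kinase and phosphatase genes, and the 5 nearest profiles of Mpc1 and Pdk4. Cs, Fbxo32, Ldhb, Myh1, Ogdh, Dlst and the macrophage and fibroblast genes not called were named outside this rule, after their values were seen. The members, lists and tests were chosen with earlier results of these data known, and the GC box and CCAAT box were added after the other 4 motifs had been searched. The alternatives were 3 other scalings, 2 filters, no variance trend, array weights, an offset of 32, the methods' t-test, a block for the first digit in the mouse names, the mice named 2 alone, and each mouse left out. Tables and figures used Python 3.11.15, pandas 2.3.3, NumPy 2.4.6, SciPy 1.17.1 and matplotlib 3.10.9.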

Additional observations from a re-analysis of the deposited data

Results flagged for a closer look

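The dimmest Dlat probe set (1452005_at) held a mouse far from the others of its genotype. WT mouse 1-13M read 1373 where the other WT mice read 3584 to 4663, and on the log2 scale, the scale of this test, the gap to the nearest of them was 0.785 of the range of the 5 WT mice, above Dixon's critical value of 0.71. Of 38 groups of 5 mice examined, 1 was beyond that value, and chance alone gives about 1 in 20. The D257A mice read 1811 to 2375 in this probe set.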

How the results depend on the processing

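Of 315 values of single probe sets under alternatives, 238 kept both their direction and their side of the threshold, 23 passed only under the alternative, 48 passed only in the main analysis and 6 turned sign. Genes lower among the 10 numbered 5 without scaling, 6 after quantile normalization, 0 with arrays centred on the median, 5 among the 11259 brightest probe sets, 0 without the variance trend, 7 with array weights, 0 with the leading digit as a block, and 1 to 7 when 1 mouse was left out; 0 were higher under any of these. In the mice numbered 2 alone, 4 of the 10 genes were lower and 0 higher, beside 858 and 895 of all probe sets. Over all probe sets 843 were lower and 819 higher (49.3% of the calls). After quantile normalization 822 were lower and 872 higher, and among the 11259 brightest probe sets 685 and 777. The counts were 856 and 356 without scaling (29.4% higher), 418 and 1599 with arrays centred on the median (79.3% higher), 599 and 541 with no filter, 615 and 515 without the variance trend, 2110 and 1858 with array weights, 493 and 540 with the methods' t-test, 271 and 291 with the block, and 401 to 1780 lower and 449 to 1648 higher with 1 mouse left out. The methods' t-test passed 6 of the 10 genes before Benjamini-Hochberg adjustment and 2 after it, and 4997 and 1033 of all probe sets. The sign turned for Pdhb with arrays centred on the median (0.04) and for Pdk2 without scaling (-0.02), after quantile normalization (0.00), with the block and in mice numbered 2 (-0.03 in both) and with 1 mouse left out (-0.02 to 0.10, the lowest without WT mouse 3-18M), with no call. With 1 mouse left out, log2 Pdk4 minus log2 Pdk2 was -0.06 to 0.50 and log2 Pdp1 minus log2 Pdk4 was -1.74 (without WT mouse 1-13M) to -0.78. In the mice numbered 2 these were 0.78 and -1.82. Log2 Dlat minus log2 Pdha1 was -0.28 after quantile normalization (exact permutation p = 0.0635). The cause of these shifts was not tested. With 5 mice per genotype the number of arrays limits the precision, and the depth of an array is not a count. No paired analysis was possible because the mouse numbers are not shared between the genotypes.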
